A study of Mus musculus with 4 samples.

Results

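Genes of spermatogonial differentiation and of the response to retinoic acid were described on 4 mouse expression arrays. The 9 genes, Kit, Stra8, Sohlh1, Sohlh2, Neurog3, Dmrtb1, Dmrt1, Rarg and Crabp1, were chosen by gene symbol and are represented by 12 probe sets, of 18193 genes with 34945 probe sets in all. The arrays hold RNA of germline stem (GS) cells, of multipotent germline stem (mGS) cells, of R1 cells, an embryonic stem (ES) cell line, and of GS cells lacking Trp53, whose title adds ICR, a strain name; the strain of the other cultures, the age of the donor mice and the number of lines behind each array are not given in the sources used here. GS cells are spermatogonial stem cells propagated in culture, and mGS cells are cells with ES-like properties that arise from them. Both GS cultures were grown in a medium derived from StemPro-34 and both the mGS and the ES culture in ES cell medium, so cell type and medium cannot be told apart. With 1 array per group there is no replicate, no error and no test, and every difference is given by its size.

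In the testis, undifferentiated spermatogonia become differentiating spermatogonia when they meet retinoic acid, which binds nuclear receptors of the RAR and RXR families. The transition is marked by the receptor tyrosine kinase KIT and by STRA8, a protein later needed for entry into meiosis, and it depends on the helix-loop-helix factors SOHLH1 and SOHLH2. The DM domain factors DMRT1 and DMRTB1, also called DMRT6, restrain retinoid responses or coordinate the exit from the spermatogonial programme, and NEUROG3 and RARG mark progenitors that are about to respond.

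Signals are intensities on a linear scale after quantile normalization of the 4 arrays. The median of every array, 82.7, served as a floor: lower signals were set to it, a fold against it is a lower bound, written as at least N-fold, and genes with no array of a comparison above it were left out of that comparison. A gene was called different at 2-fold or more. The groups carried the markers of their labels. All 10 pan-germ cell markers, among them Ddx4 and Dazl, were above the floor on the GS and knockout arrays. All 10 markers of pluripotent cells, Nanog and Tdgf1 included, were above it on the mGS and ES arrays. The floor alone did not separate the groups. Of the germ cell markers, 8 passed it on mGS and 5 on ES, and 7 of the pluripotent markers did on GS and on knockout. The summed germ cell signal was 87527 on GS and 105019 on knockout, and 5054 on mGS and 1754 on ES. The median signal as deposited lay between 75.8 for mGS and 92.6 for knockout. The added dap control RNA read 271 and 255 on the GS and mGS arrays and 2545 and 3055 on the ES and knockout arrays. Arrays of like control signal are thus compared for mGS against GS and for ES against knockout, and arrays of unlike control signal for ES against mGS and for knockout against GS.

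Most of these genes had lower signals in the ES medium, and they fell into several patterns. Stra8, Sohlh1, Sohlh2, Neurog3 and Dmrt1 were at least 2-fold lower on both the mGS and the ES array than on both the GS and the knockout array. That is 5 of 9, where 8.38% of 12897 genes, all those that passed the floor on some array, met the same condition. Dmrtb1 was high on the GS array only, Kit was lowest there, Rarg varied little, and Crabp1 was highest on the knockout and ES arrays. Of the 9, 8 genes passed the floor in each of the GS and knockout cultures, 7 in mGS cells and 5 in ES cells, and 4, Sohlh2, Dmrt1, Rarg and Crabp1, on all arrays. Since the floor is the array median, about 50% of all probe sets pass it on any array. The share of all genes that pass it on each array was not computed, so these counts only describe the 9. In bulk RNA, fewer cells of a type and less RNA per cell cannot be told apart.

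**Figure D1:**
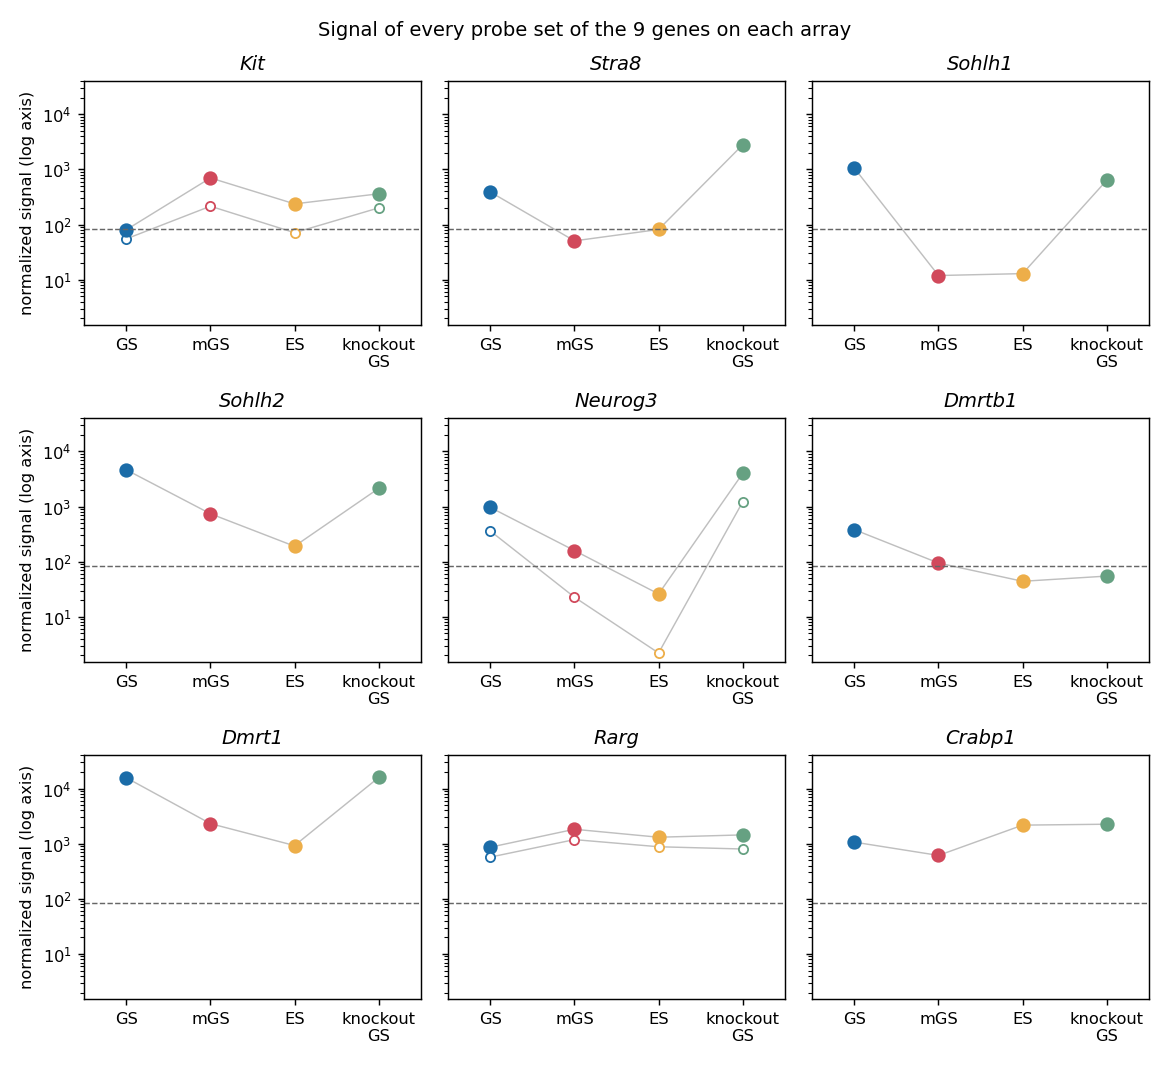
Normalized signal (log axis) of every probe set of the 9 genes on the GS, mGS, ES and knockout GS arrays, 1 array per group. Filled points are the probe set of highest mean, open points the other probe set of Kit, Neurog3 and Rarg, grey lines join the points of a probe set, and the dashed line is the floor of 82.7. Stra8, Sohlh1, Sohlh2, Neurog3 and Dmrt1 dip on the mGS and ES arrays, and Kit is lowest on the GS array.

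Among the genes that handle retinoic acid, Rarg, which encodes the receptor RAR gamma, had signals of 863 on the GS array, 1824 on mGS, 1308 on ES and 1442 on knockout. Its highest and lowest arrays lay 2.11-fold apart, and any neighbours in the order mGS, knockout, ES and GS differed by less than 2-fold. The other Rarg probe set read 570.3, 1184, 879 and 799.8 on the same arrays, with GS again lowest and mGS highest, but with ES above knockout. The mGS signal was 2.11-fold that of GS, just past the threshold, and the log2 difference was 0.995, just short of it, with the values as deposited. Crabp1, a cytosolic protein that binds retinoic acid, read 1066 on GS, 612 on mGS, 2167 on ES and 2252 on knockout. It was 3.54-fold higher on the ES than on the mGS array and 2.11-fold higher on the knockout than on the GS array, with a log2 difference of 0.82 for the latter after centring arrays on their medians. Within the pairs of like control signal, Crabp1 differed by 1.74-fold between mGS and GS and by 1.04-fold between ES and knockout. Its high arrays are thus the ones with high dap signal, and the part of this in the difference was not tested.

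The other genes of the retinoid pathway showed no common direction. Of the 6 receptor genes, Rarb, whose transcription retinoic acid induces in many cells, was under the floor on all 4 arrays, and Rxra, the common partner of the RARs, read 688 on GS, 152 on mGS, 189 on ES and 381 on knockout. It was 4.52-fold lower on mGS than on GS and 2.01-fold lower on ES than on knockout. Over the 5 receptor genes compared, Rarg included, the median log2 difference was 0.42 for mGS against GS, beside -0.04 for all genes. It was -0.21 for knockout against GS, beside 0.07. Rara and Rxrb stayed within 2-fold in the 4 comparisons.

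Of 11 measured genes of retinoic acid synthesis, retinol uptake and storage, Rdh12, Aldh1a1, Lrat and Stra6 were under the floor on every array. Aldh1a2, a retinaldehyde dehydrogenase that makes retinoic acid, read 357 on GS, 121 on mGS, 167 on ES and 904 on knockout, which is 2.53-fold higher on knockout than on GS. It was 2.94-fold lower on mGS than on GS and 5.4-fold lower on ES than on knockout. Dhrs4, a retinol dehydrogenase/reductase, went the other way, at least 16-fold higher on mGS than on GS and at least 20.5-fold higher on ES than on knockout. The synthesis list thus had 1 gene higher and 1 lower among 6 compared for mGS against GS, beside 15.3% and 16.5% of all genes, and its median log2 difference was -0.19.

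Of the genes that bind or break down retinoic acid, Crabp2, which delivers it to the nucleus, read 2696 on GS, 322 on mGS, 692 on ES and 961 on knockout. It was 8.37-fold lower on mGS and 2.8-fold lower on knockout than on GS, the latter opposite in direction to Crabp1. Fabp5, a fatty acid binding protein that also carries retinoic acid, was 9.69-fold higher on mGS than on GS and 12-fold higher on ES than on knockout. Of the retinoic acid hydroxylase genes, Cyp26b1 stayed under the floor on all arrays, and Cyp26a1 passed it narrowly at 102 on mGS and 98.2 on ES. Over the 4 genes compared between mGS and GS, Crabp1 included, the median log2 difference was -0.25, beside -0.04 for all genes.

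**Figure D2:**
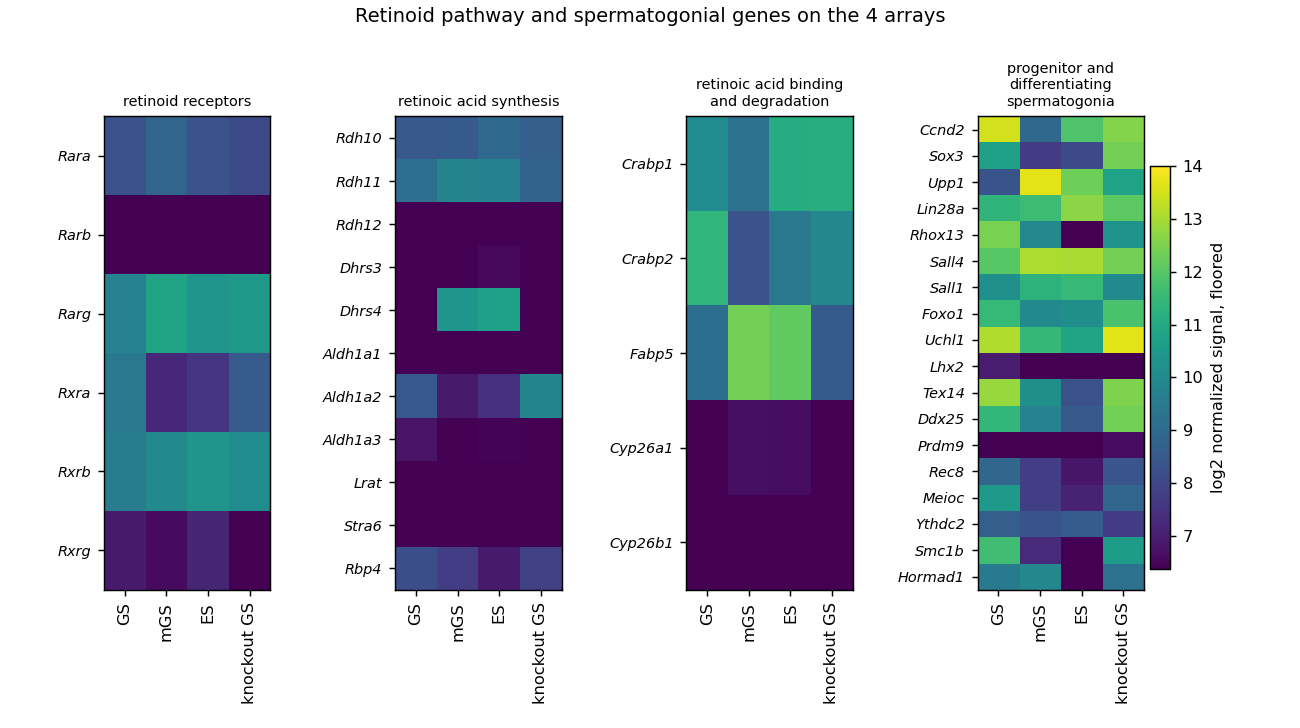
Log2 normalized signal, with values under the floor raised to it, of retinoid receptor genes, of genes of retinoic acid synthesis, of binding and degradation, and of other genes of progenitor and differentiating spermatogonia. Rows are genes, columns the 4 arrays, and a row is to be read from left to right only, since signals of different probe sets are not comparable. Aldh1a2 and Sox3 are brightest on the knockout array, and Dhrs4 and Fabp5 on the mGS and ES arrays.

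Stra8 is the member whose transcription is most directly tied to retinoic acid. It read 389 on GS, 50.6 on mGS, 81.4 on ES and 2794 on knockout. Only the germline cultures were above the floor, and the knockout signal was 7.19-fold that of GS. Against Stra8 on the floor, GS was at least 4.7-fold higher than mGS, and knockout at least 33.8-fold higher than ES.

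The promoter windows of Stra8 and Sohlh1 are shown because both hold the letters of a retinoid receptor half-site. The Sohlh1 window also holds E-boxes of the form CACGTG. Those of Neurog3 and Sohlh2 hold neither AGGTCA nor CACGTG. They are shown because these genes were high on the same arrays as Stra8 and Sohlh1. The windows are from RefSeq on build GRCm38.p6, 250 bases before to 50 after the transcription start, and 8 of the 9 members had one. They lie at chr6:34920698-34920997 on the plus strand for Stra8, at chr2:25847199-25847498 on the minus strand for Sohlh1, at chr10:62132840-62133139 on the plus strand for Neurog3 and at chr3:55181794-55182093 on the plus strand for Sohlh2. Capitals mark AGGTCA, a half-site of retinoid receptor elements, and CACGTG, an E-box of the kind that helix-loop-helix factors bind, both searched on both strands. A half-site is only part of an element, and whether any of them belongs to a whole one was not tested.
Stra8: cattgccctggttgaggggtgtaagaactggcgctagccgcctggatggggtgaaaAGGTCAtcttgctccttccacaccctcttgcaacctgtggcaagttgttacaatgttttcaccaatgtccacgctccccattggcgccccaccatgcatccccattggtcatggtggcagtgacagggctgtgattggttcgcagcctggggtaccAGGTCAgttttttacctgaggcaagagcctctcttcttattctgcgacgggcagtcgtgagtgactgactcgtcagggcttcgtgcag
Sohlh1: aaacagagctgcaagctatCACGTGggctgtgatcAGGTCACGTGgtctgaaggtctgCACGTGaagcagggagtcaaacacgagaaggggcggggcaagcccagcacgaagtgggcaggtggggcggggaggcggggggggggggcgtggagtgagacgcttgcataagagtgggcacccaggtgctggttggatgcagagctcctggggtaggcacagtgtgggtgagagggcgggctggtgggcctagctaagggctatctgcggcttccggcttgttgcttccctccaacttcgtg
Neurog3: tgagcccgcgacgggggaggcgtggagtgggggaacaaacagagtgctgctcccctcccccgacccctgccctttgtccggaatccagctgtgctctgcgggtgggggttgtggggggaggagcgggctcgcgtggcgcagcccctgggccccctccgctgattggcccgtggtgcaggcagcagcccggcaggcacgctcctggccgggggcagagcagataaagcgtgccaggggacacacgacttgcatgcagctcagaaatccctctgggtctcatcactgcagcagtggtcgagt
Sohlh2: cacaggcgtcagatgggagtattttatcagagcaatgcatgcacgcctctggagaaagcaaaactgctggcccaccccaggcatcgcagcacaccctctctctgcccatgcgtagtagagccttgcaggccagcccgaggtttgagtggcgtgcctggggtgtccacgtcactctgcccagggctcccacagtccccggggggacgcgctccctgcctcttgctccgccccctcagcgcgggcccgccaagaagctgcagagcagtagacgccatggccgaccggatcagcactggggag
The Stra8 window holds AGGTCA at 2 places, beginning 194 and 38 bases before the start. Of 32851 windows of this length, 16.3% held the motif at least once and 1.81% at 2 or more places. The Sohlh1 window holds CACGTG at 3 places, beginning 231, 211 and 192 bases before the start, against 7.15% of windows with any and 0.0883% with 3 or more. It also holds AGGTCA once, 215 bases before the start, which shares 2 bases with the middle E-box. Neither AGGTCA nor CACGTG was found in the windows of Neurog3, Sohlh2, Kit, Dmrtb1 and Crabp1, and 1 window of Rarg held AGGTCA once. The wider E-box form CANNTG, with any middle bases, includes CACGTG and is capitalized only in that form. It was in 72.3% of all windows. Among the windows shown it was found at 1 place each for Neurog3 and Sohlh2 and at 0 for Stra8. For Sohlh1 it was found at 5, the 3 CACGTG places among them. A match describes letters only, and some genes have several windows that overlap.

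Genes known to be induced by retinoic acid, Stra8 included, showed no common difference between knockout and GS. Of 13 measured, 8 were under the floor on both the GS and the knockout array, among them Rarb, Cyp26a1, Stra6 and Hoxb1. Of the 5 compared, Stra8 and Tgm2 were higher on knockout, Tgm2 by at least 2.27-fold, and Crabp2 was lower. Of all genes, 9.77% were higher and 6.93% lower. The median log2 difference of the 5, with Stra8 among them, was 0.03. Rec8, a meiotic cohesin gene that retinoic acid induces in germ cells, read 478 on GS and 332 on knockout. It was 2.22-fold lower on mGS than on GS and 2.88-fold lower on ES than on knockout.

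The helix-loop-helix genes Sohlh1 and Sohlh2, whose products act together in early differentiating spermatogonia, were high in both germline cultures. Sohlh1 read 1054 on GS, 11.9 on mGS, 12.9 on ES and 636 on knockout. It was under the floor in both cultures in ES medium, at least 12.8-fold lower on mGS than on GS and at least 7.7-fold lower on ES than on knockout. The knockout and GS arrays differed by 1.66-fold, short of the threshold.

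Sohlh2 read 4633 on GS, 739.7 on mGS, 190.5 on ES and 2135 on knockout. Unlike Sohlh1, it was above the floor on every array, and each step in the order GS, knockout, mGS and ES was over 2-fold. It was 6.26-fold lower on mGS than on GS, 11.2-fold lower on ES than on knockout, 3.88-fold lower on ES than on mGS and 2.17-fold lower on knockout than on GS.

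Neurog3, a helix-loop-helix gene of progenitor spermatogonia that is best known from the endocrine pancreas, read 963 on GS, 159 on mGS, 26 on ES and 3985 on knockout. Its other probe set read 360.0, 22.7, 2.21 and 1217 in the same order of arrays. Both probe sets put knockout above GS, by 4.14-fold and 3.38-fold, and GS above mGS, by 6.05-fold and at least 4.35-fold. ES was under the floor, at least 48.2-fold below knockout on the leading probe set. The mGS signal was at least 1.93-fold above the ES floor, a bound that cannot show whether the difference reached 2-fold.

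Neurog1 and Neurog2, paralogues of Neurog3, were under the floor on all arrays. Figla, a germ cell helix-loop-helix gene, read 658 on GS and 699 on knockout and lay under the floor on mGS and ES. Neurod1, which NEUROG3 activates in the pancreas, went against Neurog3 and read 29.9 on GS, 501 on mGS, 600.5 on ES and 45.7 on knockout. Among 10 genes of this family compared between mGS and GS, 7 were lower and 1 higher, beside 16.5% and 15.3% of all genes. The lower ones include Sohlh1, Sohlh2 and Neurog3, already described. The median log2 difference was -1.6, beside -0.04 for all genes. Between knockout and GS, Neurog3 alone was higher and Sohlh2 alone lower among 9, near the 9.77% and 6.93% of all genes.

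Dmrt1, which keeps spermatogonia from entering meiosis early, read 15665 on GS, 2308 on mGS, 924 on ES and 15836 on knockout. GS and knockout differed by 1.01-fold, and both stood well above the cultures in ES medium. The mGS signal was 6.79-fold below GS and the ES signal 17.1-fold below knockout, yet both stayed above the floor. Sertoli cells also express Dmrt1, and of 9 measured Sertoli markers, between 2 and 4 were above the floor on an array, and the summed signal ran from 557 on knockout to 1167 on mGS. Amh, Cldn11, Fshr, Dhh and Inha were under it on all 4, while Wt1 was above it on all 4, at 173 on GS, 315 on mGS, 105 on ES and 126 on knockout. Clu was above it on all but the knockout array and Sox9 on all but the mGS array, and the part of such cells in the Dmrt1 signal was not tested.

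Dmrtb1, which acts at the change from mitotic to meiotic germ cells, read 381 on GS, 94.5 on mGS, 44.1 on ES and 54.8 on knockout. It was the only one of the 9 genes that was above the floor on GS and under it on knockout, at least 4.6-fold lower. It was 4.03-fold lower on mGS than on GS, and ES and knockout were both under the floor. Dmrt3, a family member outside the 9, followed Dmrt1, with 640.3 on GS, 79 on mGS, 55 on ES and 957 on knockout. Of 8 measured genes of the Dmrt family, 6 could be compared between mGS and GS. Of these, 3 were lower, Dmrt1, Dmrtb1 and Dmrt3, and none higher, beside the same 16.5% and 15.3%.

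Kit, the receptor of stem cell factor and a surface mark of differentiating spermatogonia, read 80.4 on GS, 700.1 on mGS, 237 on ES and 361 on knockout. The GS array was the only one under the floor, and Kit was at least 8.47-fold higher on mGS, at least 4.36-fold higher on knockout and at least 2.87-fold higher on ES than there. Its other probe set read 55, 215, 71.2 and 200.4 in the same order, at least 2.6-fold higher on mGS and at least 2.42-fold higher on knockout than on GS, but under the floor on ES. ES was 1.52-fold below knockout on the leading probe set and at least 2.42-fold below it on the other. Kit was 2.95-fold lower on ES than on mGS.

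Kit is also made by mast cells, blood progenitors and melanocytes. Of 10 mast cell and blood progenitor markers, between 1 and 3 were above the floor on an array, and Cpa3, Mcpt4, Fcer1a and Ms4a2, genes of mast cell granules and of the IgE receptor, were under it on all 4. Gata2 was above it on all 4, and Cd34, which many cell types make, was under it at 33.3 on GS and read 115 on mGS, 111 on ES and 163 on knockout, so that GS was its only array under the floor, as for Kit. The part of such cells in the Kit difference was not tested. The summed signal of that list ran from 421 on GS to 533 on ES. Of 7 melanocyte and neural crest markers, Mitf, Pmel and Mlana were higher on mGS than on GS, by at least 10.4-fold, 5.05-fold and at least 2.69-fold, while Dct, Tyr and Tyrp1 were under the floor on all arrays. The summed signal of the list was 387 on GS, 2209 on mGS, 838 on ES and 553 on knockout, the order of the Kit signals apart from ES and knockout, and its part in the Kit difference was not tested.

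The gene of the ligand, Kitl, was under the floor at 17.5 on GS and 72.4 on knockout and read 288 on mGS and 356 on ES. Of 14 measured genes of Kit signalling, 2 were higher and 2 lower on mGS than on GS, near the 15.3% and 16.5% of all genes, with a median log2 difference of -0.03. The higher ones were Kitl and the phosphatase gene Ptpn6, and the lower ones Pik3r2 and the kinase gene Fyn, by 2.45-fold and 3.18-fold. No gene of the list differed by 2-fold between knockout and GS.

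**Figure D3:**
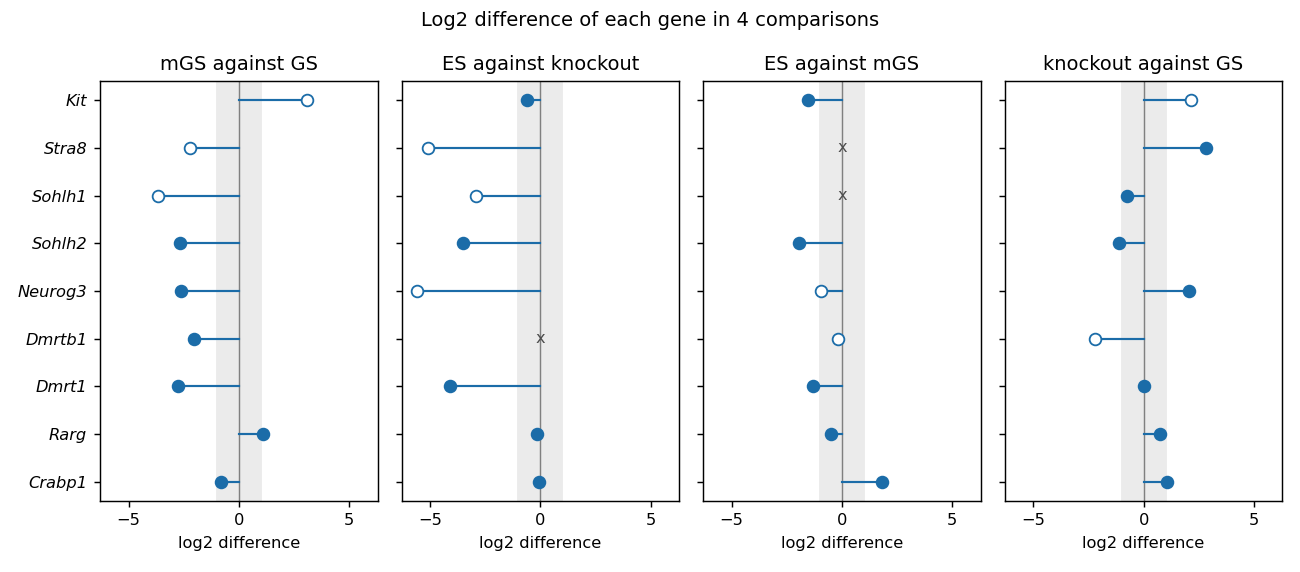
Log2 difference of each of the 9 genes for mGS against GS, ES against knockout, ES against mGS and knockout against GS. Filled points are measured on both arrays, open points are bounds against the floor, a cross marks a gene under the floor on both arrays, and the grey band spans differences under 2-fold. The first 2 panels share no array. Stra8 and Neurog3 lie far to the left for ES against knockout and to the right for knockout against GS.

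Compared between mGS and GS, the comparison the series names in its search for molecules of the conversion, 6 of the 9 genes were lower and 2, Kit and Rarg, higher, beside 16.5% and 15.3% of the 11981 genes compared. Between ES and knockout, 5 were lower and none higher, beside 21.5% and 18.8% of 12325 genes. Stra8, Sohlh1, Sohlh2, Neurog3 and Dmrt1 were lower in both comparisons, 5 of the 8 genes compared in both, beside 11.3% of 11409 genes. No array enters both comparisons, and both set ES medium against GS medium. The knockout array also holds cells lacking Trp53, so genotype cannot be told apart from cell type and medium in ES against knockout. Against the GS array, of unlike control signal, these 5 genes were lower on ES as well. The folds were at least 4.7 for Stra8, at least 12.8 for Sohlh1 and at least 11.6 for Neurog3. They were 24.3 for Sohlh2 and 17 for Dmrt1. Many other germ cell genes were lower too. All 10 pan-germ cell markers were lower in both comparisons, with median log2 differences of -4.69 and -6.09. Of 11 markers of undifferentiated spermatogonia, 8 were lower on mGS than on GS, with a median of -3.16, and 1, Etv5, was 3.25-fold higher. Between ES and knockout, 7 of 10 of these markers were lower and 2, Etv5 and Eomes, higher. Lower signals were therefore not limited to the 9 genes.

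**Figure D4:**
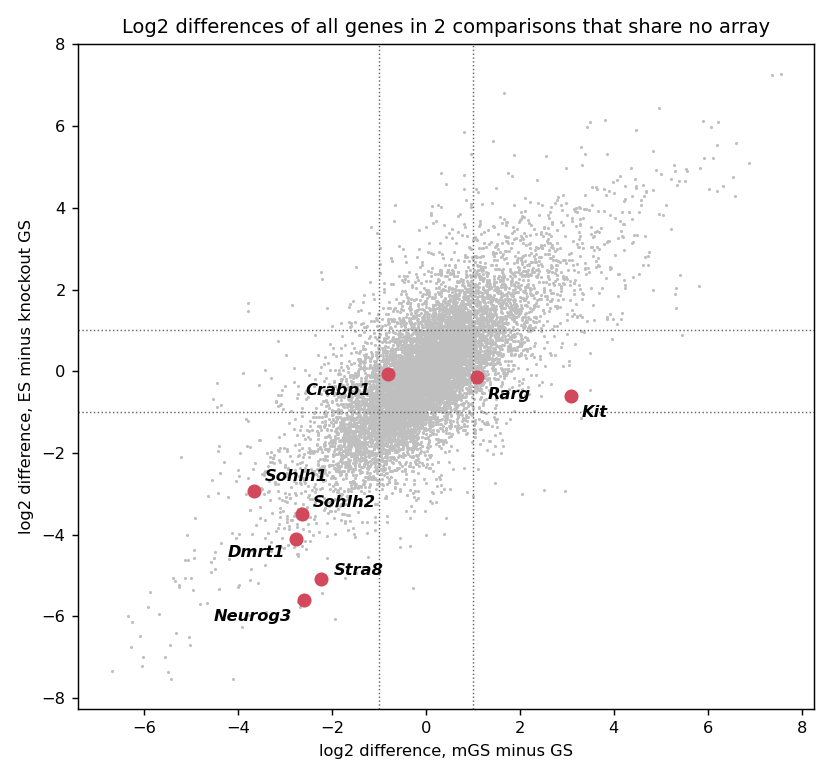
Log2 difference of mGS minus GS (horizontal) against that of ES minus knockout GS (vertical) for the 11409 genes compared in both, in grey, with 8 of the 9 genes in red. Dotted lines mark 2-fold. The lower left corner holds Stra8, Sohlh1, Sohlh2, Neurog3 and Dmrt1, and Kit stands to the right, at 3.08 and -0.60.

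Between knockout and GS, Stra8, Neurog3, Kit and Crabp1 were higher and Sohlh2 and Dmrtb1 lower, 4 and 2 of the 9 genes, beside 9.77% and 6.93% of 11623 genes. Genotype and dap signal differ together between these arrays, and their parts cannot be told apart; a strain is named for the knockout only. The knockout label was not checked at its target gene, which was not analysed here. In the same comparison 6 of 10 markers of undifferentiated spermatogonia were lower and none higher, among them Gfra1 by 2.39-fold, Ret by 2.83-fold and Etv5 by 3.85-fold, while Zbtb16 and Id4 had log2 differences of 0.36 and -0.17. Fibroblast markers moved with this comparison as well, with 4 of 8 compared higher on knockout, none lower and a median log2 difference of 1.08, among them Acta2 by 2.97-fold and Col5a2 by at least 3.47-fold, and their part in the differences was not tested. This comparison and that of mGS with GS share the GS array. Kit was higher and Dmrtb1 and Sohlh2 lower in both, and Stra8 and Neurog3 were lower on mGS and higher on knockout.

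Other genes of progenitor and differentiating spermatogonia also went both ways on the knockout array. Of 18 compared, 2 were higher and 3 lower, beside 9.77% and 6.93% of all genes. The median log2 difference was -0.25, beside 0.07 for all genes. Sox3, a progenitor gene, read 1703 on GS, 209 on mGS, 270.3 on ES and 5385 on knockout, 3.16-fold higher on knockout than on GS. Upp1 was 5.27-fold higher on knockout than on GS. Rhox13, Meioc, which sustains the meiotic programme, and the meiotic cohesin gene Smc1b were 4.57-fold, 3.1-fold and 2.13-fold lower. Ccnd2, a cyclin of differentiating spermatogonia, had a log2 difference of -0.88. On mGS against GS, 10 of 17 were lower and 3 higher, beside 16.5% and 15.3% of all genes, with a median of -1.48. The widest difference was that of Upp1, 39.9-fold higher on mGS, and Ccnd2 and Smc1b followed, 23.2-fold and 20.5-fold lower.

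Between ES and mGS, both grown in ES medium, Kit, Sohlh2 and Dmrt1 were lower on the ES array and Crabp1 higher, 3 and 1 of the 9 genes, beside 5.13% and 6.9% of 11816 genes. Stra8 and Sohlh1 were under the floor on both arrays. The pan-germ cell markers included 4 of 8 compared that were lower on ES, Mael by 7.96-fold and Dazl by 4.44-fold. Fibroblast markers were highest on the ES array, where 11 of 12 were above the floor and at least 2-fold above mGS, with a summed signal of 37540 against 5079 on mGS, 2701 on knockout and 1226 on GS. Crabp2 was also higher on ES than on mGS, by 2.15-fold, and the part of the fibroblast signal in either Crabp difference was not tested.

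The genes whose profile over the 4 arrays was most like that of a member were found by the root mean square difference of floored log2 values centred on their mean. For Stra8 they were Lmo1, Cracdl and Sox3, at 0.312, 0.438 and 0.439, and 8 genes lay within 0.5. Lmo1 read 230.5 on GS, 67.1 on mGS, 60.8 on ES and 2544 on knockout. For Neurog3 they were Txndc16, Abca1 and Hspa4l, at 0.306, 0.38 and 0.4. For Kit they were Blvra, Sh3d19 and Pcmtd1, at 0.252, 0.276 and 0.288.

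The profiles of Dmrt1 and Sohlh1 had more neighbours, 53 and 97 genes within 0.5. Nearest to Dmrt1 were Fgd6, the piRNA pathway gene Tdrd5 and Galnt12, at 0.116, 0.128 and 0.163. Nearest to Sohlh1 were Jakmip1, the meiosis gene M1ap and Tmem18, at 0.104, 0.113 and 0.114. Efhc2, Kif26a and Usp26 were nearest to Sohlh2, at 0.15, 0.187 and 0.276, and Scn7a, Neil3 and Pphln1 to Dmrtb1, at 0.0851, 0.0872 and 0.123. Rarg, which varied little, had 4719 genes within 0.5, and Crabp1 had 342, led by Cachd1 at 0.0733. With 4 arrays many genes share a profile, and likeness says nothing of a shared role.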

How the data were processed

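Total RNA extracted with Trizol was made into biotin-labelled cRNA and hybridised to Affymetrix arrays, per the labels' protocols. The authors deposited 1 linear intensity per probe set and array, with a mean of 500 after trimming 2% at each end; the sources used here do not name the summarising software. Leaving out 64 control probe sets of 45101, log2 intensities of the other 45037 were quantile normalized, which hides a change in total RNA. The platform annotation named 34945 of these by 1 symbol and 932 by several, which were left out, and did not list 9160. By gene identifier 34741 matched GRCm38.p6. The probe set of highest mean leads a gene, and the floor is the array median. The 4 comparisons are described by size, as 1 array per group allows no test, and the number of arrays limits precision. The members and lists were chosen with earlier results of these data known. Genes named were the 9 members, list genes past 2-fold and the 3 nearest profiles per member, predicted genes apart; values under 2-fold or under the floor were given where a gene's role called for them, which was decided after seeing them. Steps were tested on simulated data. Alternatives covered normalization, floor, pseudocount and choice of probe sets. Python 3.11.15 was used with pandas 2.3.3, numpy 2.4.6 and scipy 1.17.1, and figures were drawn in matplotlib 3.10.9.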

Additional observations from a re-analysis of the deposited data

Results flagged for a closer look

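Kit and Rarg differed in opposite directions between the pairs of arrays that share no array. The log2 difference of Kit was 3.08 for mGS against GS and -0.60 for ES against knockout, and that of Rarg was 1.08 and -0.14. Both pairs set ES medium against GS medium, and the GS cells of the second pair also lack Trp53. For Kit, both probe sets gave these opposite directions, while the other Rarg probe set gave 1.05 and 0.14, the same direction. Whether the differences themselves differ was not tested, since each rests on 1 array per group.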

How the results depend on the processing

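No paired analysis was possible because each group has 1 array, and leaving out a replicate was not possible either. Over 9 alternatives, 283 differences of single genes were recomputed; 254 moved by less than 1.5 times and 29 by more, and no difference past 2-fold changed sign. Of the 29, those set by the floor or the pseudocount concern genes near or under it. The other 2 came with the mean of probe sets. The log2 difference of Kit for mGS against GS went from 3.08 to 2.23. That of Neurog3 for ES against knockout went from -5.59 to -4.74. The genes at least 2-fold higher on mGS than on GS were 1 instead of 2 with the values as deposited, where Rarg reached 0.995. Probe sets with a lettered suffix can match several transcripts or genes. Those of Kit, Rarg and Crabp1 all end in _a_at, the suffix for several transcripts of the same gene, and these genes have no others. Without lettered probe sets these genes drop out. Genes higher on mGS than on GS then numbered 0, as did those higher on ES than on mGS. Those higher on knockout than on GS numbered 2. Genes lower on ES than on mGS were 5 instead of 3 with the floor at the 30th percentile or without a floor, through Neurog3 and Dmrtb1. Kit passed 2-fold between ES and knockout, at -1.05, with the mean of its probe sets, and Crabp1 between knockout and GS fell short, at 0.82, with arrays centred on medians. The other counts of genes past 2-fold stayed within 1.5 times of those reported.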
